A study of Mus musculus with 90 samples.

Results

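The genes described here are 44 members of the DNA replication machinery and of the S phase expression programme, chosen by symbol. All 44 were present among the 23420 genes of the count table. They fall into 14 genes of the replicative helicase and its loading, 15 genes of polymerases, primase, clamp, clamp loader and flap processing, 5 genes of nucleotide supply, both large subunits of the histone chaperone CAF-1, and 8 genes of E2F factors, cyclin E and checkpoint. Their levels were read in 90 mouse T cell libraries in 30 groups. The rule used no measured value, but it was set with earlier results of these data known.

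The Treg series held 30 libraries at 3 per group. Regulatory T cells (Tregs), CD4 T cells that restrain immune responses, came from tumours (TIL), from non-draining lymph nodes (ndLN) and from naive mice. At each site they were sorted as positive for IL10, positive for Ebi3 (a subunit of the cytokine IL-35) or double negative (DN), and a further group held naive effector T cells (Teff). All mice of this series are labelled wild type. The CD8 series held 60 libraries of CD8 T cells. Cells came from non-draining nodes (NDLN) or from tumours, where they were sorted by the checkpoint receptors PD-1 and TIM-3. NEG cells carried neither receptor, INT cells had an intermediate amount of PD-1 alone, SP cells a high amount of PD-1 alone, and DP cells a high amount of PD-1 together with TIM-3. Each of these 5 populations came from hosts labelled DKO (4 libraries), Il10 (2), Ebi3L (3) and yfp (3). By the design text the first 3 labels are deletions, in Tregs, of both cytokines, of IL-10 and of IL-35, so the RNA of CD8 cells cannot check them. The tumour line, the age of the mice, the Cre driver and the number of animals per library are not stated in the labels.

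DNA replication is licensed in G1, when the origin recognition complex, Cdc6 and Cdt1 load the MCM helicase onto origins. At the start of S phase Cdc45 and the GINS complex join the helicase, DNA polymerase alpha with primase lays down primers, and polymerases delta and epsilon extend them on the PCNA clamp. Ribonucleotide reductase, thymidylate synthase and thymidine kinase supply the nucleotides. Most of these genes are bound by E2F factors, which the retinoblastoma protein family holds in check until cyclin E and CDK2 act, and T cells that leave quiescence switch them on before their first division.

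E2F sites are the sequence feature by which this programme is known, so the promoters were read for it. RefSeq promoters of the GRCm38.p6 build (250 bases before to 50 after a start site) were matched for 37 of the 44 genes. The first listed start of each gene was used and its other starts were not. For some genes, such as Cdc6, that start lay inside the annotated gene. A match to TTTCCCGC, TTTGGCGC, TTTCGCGC or TTTGCCGC on either strand was present in 12 of 37 (32.4%), against 626 of 27025 promoters of all genes (2.32%). The 30-base windows below show the first match of each of the 12 genes on the gene's strand, with the matched bases in capitals. Capitals that start with GC are the motif read on the opposite strand, and in Mcm5 and Mcm6 a pair of overlapping matches gives 12 capitals.
Cdc6 (chr11:98908002-98908031, +): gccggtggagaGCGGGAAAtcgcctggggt
Cdt1 (chr8:122568035-122568064, +): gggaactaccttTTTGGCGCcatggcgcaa
E2f2 (chr4:136172294-136172323, +): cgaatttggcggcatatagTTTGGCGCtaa
E2f7 (chr10:110745230-110745259, +): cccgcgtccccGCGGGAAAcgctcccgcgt
Mcm3 (chr1:20820275-20820304, -): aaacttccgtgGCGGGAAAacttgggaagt
Mcm5 (chr8:75109347-75109376, +): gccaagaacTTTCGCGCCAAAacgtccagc
Mcm6 (chr1:128359795-128359824, -): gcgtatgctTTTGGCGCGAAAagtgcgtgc
Mcm7 (chr5:138172030-138172059, -): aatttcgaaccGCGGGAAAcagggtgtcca
Orc1 (chr4:108579416-108579445, +): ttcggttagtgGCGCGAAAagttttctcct
Pola1 (chrX:93632275-93632304, -): gtcatcacaggGCGCCAAAtgcactcccgc
Pold1 (chr7:44548766-44548795, -): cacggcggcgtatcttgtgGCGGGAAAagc
Rfc3 (chr5:151651200-151651229, -): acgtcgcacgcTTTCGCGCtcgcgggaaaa

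Most matches fell in the helicase genes, where Mcm3, Mcm6 and Mcm7 had a further match each, as did the clamp loader gene Rfc3. The motif letters were also present in 14 of 39 promoters (35.9%) of other replication genes and in 1 of 16 promoters (6.25%) of mitosis genes. The mitosis promoters differed in kind: TTTGAA, the letters of the cell cycle homology region, were present in 11 of 16 (68.8%), against 4 of 37 (10.8%) in the replication promoters and 18.1% of all promoters. CCAAT was present in 22 of 37 replication promoters (59.5%), against 37.9% of all promoters. A match is a run of letters and not a measured binding site, and genes without one may hold other forms of the motif.

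**Figure D1:**
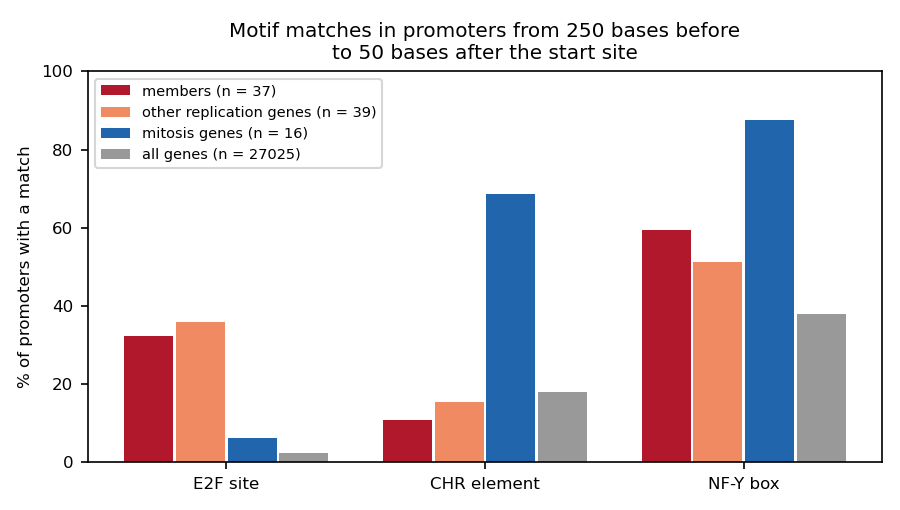
Percent of promoters with the E2F letters, with TTTGAA (labelled CHR element) and with CCAAT (labelled NF-Y box), for the 37 replication and S phase genes matched, the other replication genes, the mitosis genes and all genes. The E2F letters were present in 32.4% of the replication and S phase promoters and in 2.32% of all promoters, while the TTTGAA letters were present in 68.8% of the mitosis promoters.

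Levels are counts scaled to the library total (CPM). A library of the Treg series held 9.73 to 20.2 M counts and one of the CD8 series 19.2 to 47.7 M, so 3 counts in a library amount to 0.0629 to 0.308 CPM. The sort genes followed their labels for Il10, which was 78.8 to 155 CPM in the IL10 Treg groups and at most 5.14 CPM in the other groups of that series. Ebi3 RNA overlapped, at 4.92 to 15.7 CPM in the Ebi3 groups and up to 6.7 CPM in the others. Cd8a was 694 to 1502 CPM in the CD8 libraries, where Cd4 was at 0 in 46 of 60. Havcr2, which encodes TIM-3, was 184 to 473 CPM in DP cells and 5.74 to 82.2 CPM in SP cells. The 15 CD8 libraries of batch 3 (yfp library 3 and Ebi3L libraries 2 and 3 of each population) stood apart from the rest. Their Cd3e was 197 to 317 CPM, against 528 to 884 CPM in the 35 libraries of batch 1 and 503 to 961 CPM in the 10 of batch 2, and their Cd3d was higher, at 1232 to 2003 CPM against 570 to 1019 CPM in batch 1. Counts without them are given with each kind of CD8 comparison.

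Per kilobase of exon, the mean over 90 libraries was highest for the helicase subunit gene Mcm6 at 110 CPM per kb, followed by Rrm2 (ribonucleotide reductase) at 98.5, the clamp gene Pcna at 97.4, the dUTPase gene Dut at 92.9 and Mcm4 at 76.9 CPM per kb. It was lowest for E2f7, an atypical E2F repressor, at 0.689 CPM per kb. The members moved together: the Pearson correlation of a member's log2(CPM + 0.5) with the mean of the other members had a median of 0.897 over the 30 libraries of the Treg series and of 0.888 over the 60 CD8 libraries. These libraries share groups and batches, so the correlations are a description.

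The sum over the 44 members ranged from 1509 to 8469 CPM in the Treg series and from 1459 to 12637 CPM in the CD8 series. In the Treg series it was highest in ndLN Ebi3 Tregs, at 7469 ± 1026 CPM (SD, n = 3 here and in each Treg group), then in naive Ebi3 Tregs at 6119 ± 501 and TIL Ebi3 Tregs at 5988 ± 940 CPM. The ndLN IL10 Tregs came next, at 4565 ± 90 CPM, and IL10 Tregs averaged 3828 ± 854 CPM in the tumour and 3736 ± 912 CPM in naive mice. DN Tregs averaged 3954 ± 926 CPM in the tumour, 2480 ± 456 CPM in the node and 2365 ± 309 CPM in naive mice, and naive Teff cells 1776 ± 340 CPM. The 3 Ebi3 groups overlapped each other, as did TIL IL10 and TIL DN Tregs, whereas every ndLN IL10 library lay above every naive IL10 library. Of the 44 genes, 40 had their highest group mean in ndLN Ebi3 Tregs and the other 4 in TIL Ebi3 Tregs, and 35 had their lowest in naive Teff cells.

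In the CD8 series the group mean of the sum climbed along the populations in every genotype. In yfp hosts it averaged 1995 CPM in NDLN, 3214 in NEG, 3935 in INT, 7051 in SP and 10118 CPM in DP cells, and in DKO hosts 2232, 3207, 4980, 6407 and 9920 CPM in that order. The Il10 hosts gave 1834, 2908, 4898, 9050 and 11364 CPM, and the Ebi3L hosts 1989, 2070, 2896, 5566 and 7683 CPM. Single libraries fell at some steps. The NEG sum was 0.861 times the NDLN sum in yfp library 2 and 0.971 times in Ebi3L library 3. The DP sum was 0.934 times the SP sum in Il10 library 1. The libraries were bulk RNA, so a larger share of cells in cycle and more RNA of these genes per cell cannot be told apart in any comparison here.

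**Figure D2:**
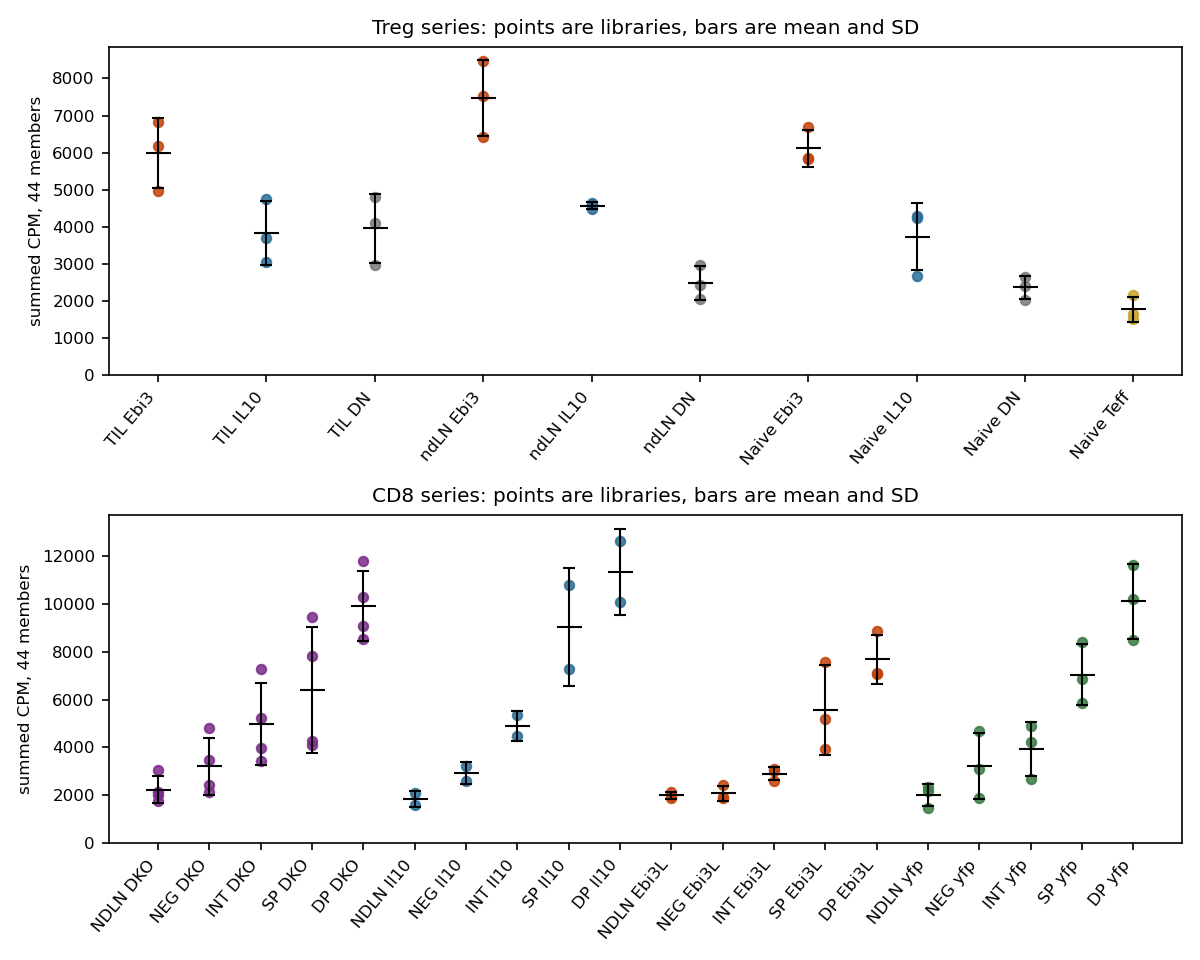
Summed level of the 44 replication and S phase genes (CPM) in each of the 90 libraries, one point per library with the group mean and SD, Treg series and CD8 series. The ndLN Ebi3 Tregs reach 8469 CPM, and DP CD8 cells of all 4 host genotypes lie above the NEG cells of the same genotype.

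**Figure D3:**
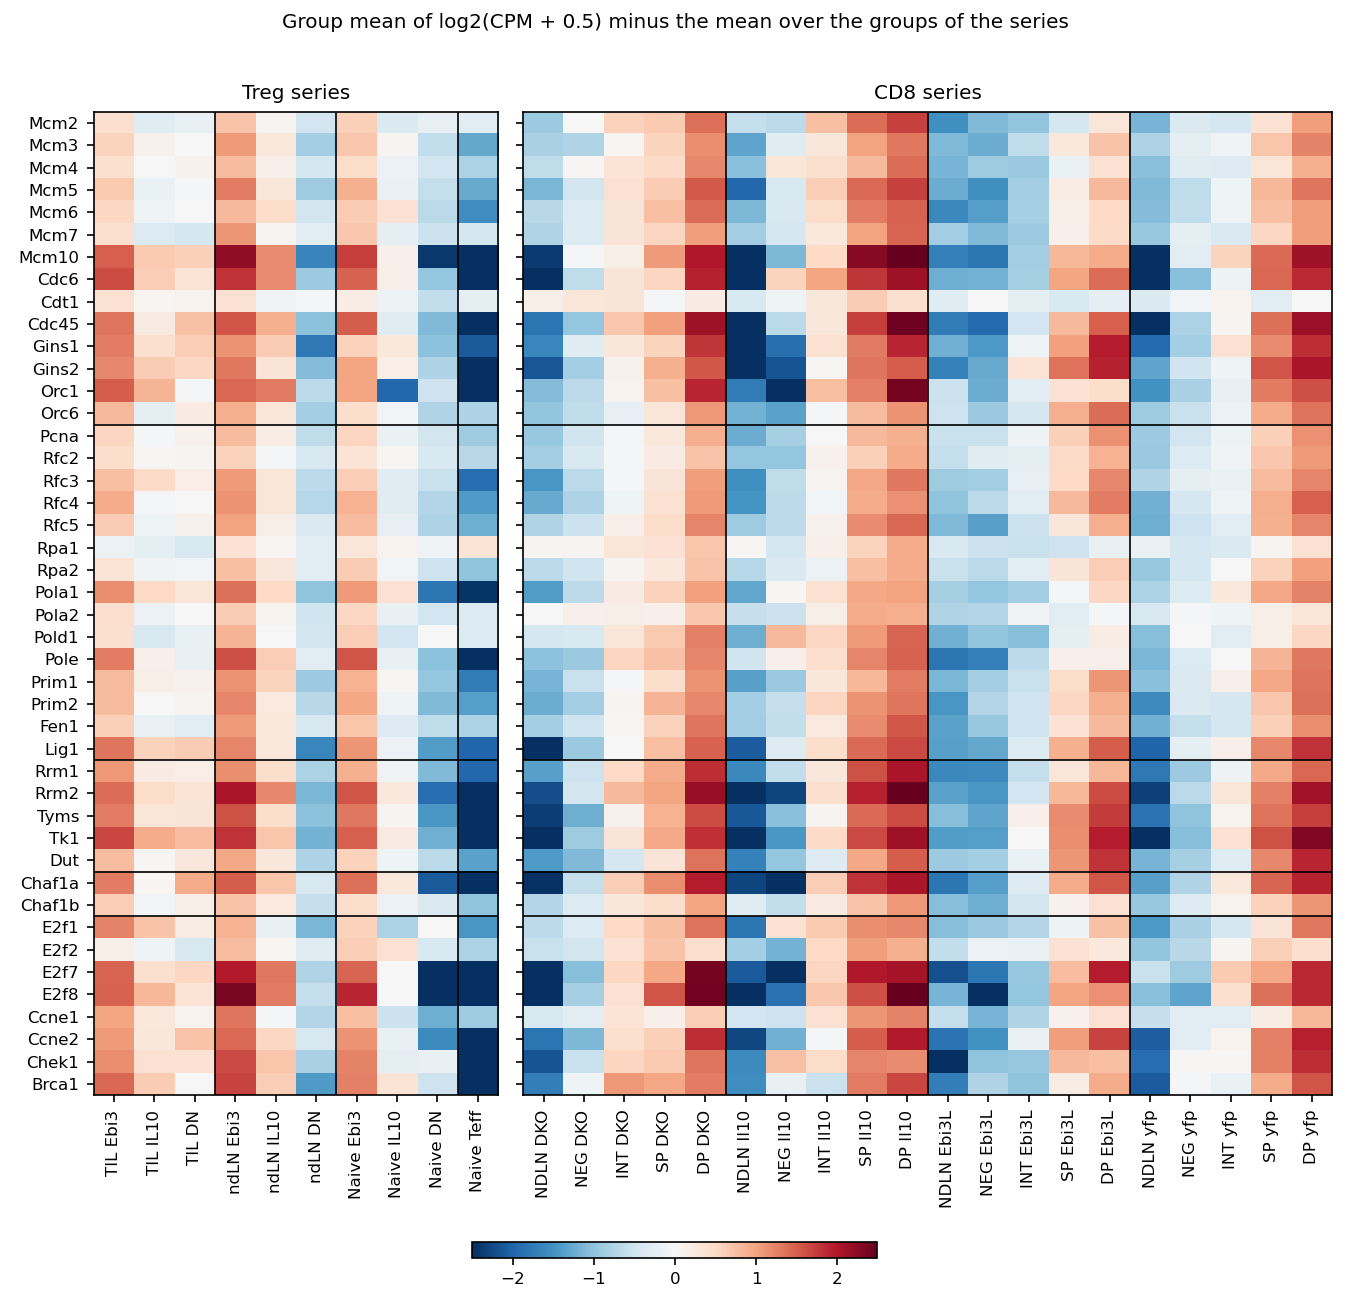
Mean log2(CPM + 0.5) of each of the 44 genes in each of the 30 groups, centred per gene within each series, with rows grouped by role and colours held at 2.5 in either direction. Nearly all rows share one pattern, with the Ebi3 Tregs and the SP and DP CD8 cells high, and Cdt1 and Rpa1 are the flattest rows.

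Ebi3 Tregs held more replication RNA than DN Tregs in the node and in naive mice, in every role. In the node 40 of the 44 members rose in Ebi3 Tregs against DN Tregs and 0 fell, with a median log2 fold change of 1.83. A gene rose or fell where its Benjamini-Hochberg adjusted p from edgeR's quasi-likelihood test over all genes was below 0.05, and 6.96% of all 12907 genes tested rose. In naive mice 36 of 44 rose and 0 fell, with a median of 1.47 and 7.4% of all genes. The same 35 genes rose at both sites. By role, 12 of 14 helicase genes, 14 of 15 polymerase and clamp genes, 5 of 5 nucleotide genes, 2 of 2 CAF-1 genes and 7 of 8 genes of the E2F group rose in the node. The naive counts were 12, 13, 5, 1 and 5. The node genes that did not pass were Cdt1, E2f1, Orc1 and Pole. Within batches the summed CPM of ndLN Ebi3 Tregs was 2.86 to 3.13 times that of ndLN DN Tregs, with 44 of 44 members higher in each of the 3 batches, and the naive ratio was 2.20 to 3.29.

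Mcm5, a core helicase subunit, was at 236, 517 and 341 CPM in the 3 ndLN Ebi3 libraries, against 43.3, 152 and 67.1 CPM in ndLN DN libraries of the same batches. The groups did not overlap, batch 2 was the highest in both, and the log2 fold change was 2.07 ± 0.28 (SE, adjusted p = 2.3e-05). Mcm10, which helps to start the loaded helicase, was at 22.1, 54.7 and 42.6 CPM in ndLN Ebi3 Tregs, against 1.19, 7.28 and 0.845 CPM in ndLN DN Tregs. It had the largest fold change there, at 3.85 ± 0.86 (adjusted p = 0.00313). The loading factor Cdc6 was at 62.0, 90.3 and 78.6 CPM, against 9.53, 24.9 and 5.80 CPM in DN Tregs, a log2 fold change of 2.53 ± 0.64 (adjusted p = 0.00968). The GINS subunit gene Gins1 rose by 2.87 ± 0.47 on the same scale.

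The clamp gene Pcna changed less in proportion but without overlap, at 448, 508 and 501 CPM in ndLN Ebi3 Tregs and 155, 202 and 192 CPM in ndLN DN Tregs (log2 fold change 1.36 ± 0.21, adjusted p = 7.39e-05). Pola1, the catalytic subunit of polymerase alpha, was at 51.2, 74.5 and 77.4 CPM in Ebi3 Tregs and 6.42, 14.7 and 19.3 CPM in DN Tregs (2.32 ± 0.62). Among the nucleotide genes, Rrm2 and Tk1 had widely separated groups. Rrm2, the S phase subunit of ribonucleotide reductase, was at 347, 501 and 406 CPM in ndLN Ebi3 Tregs, against 25.2, 69.1 and 52.9 CPM in ndLN DN Tregs, with a log2 fold change of 3.06 ± 0.46 (adjusted p = 0.000118). Tk1, thymidine kinase, was at 146, 181 and 150 CPM against 18, 17 and 24.3 CPM in DN Tregs (2.96 ± 0.34, adjusted p = 2.52e-06). For both genes the lowest Ebi3 library was more than 5 times the highest DN library.

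Among the regulators, Ccne1, which encodes cyclin E1, was at 77.5, 122 and 81.0 CPM in ndLN Ebi3 Tregs and 15.2, 41.1 and 15.2 CPM in ndLN DN Tregs (1.99 ± 0.32). The repressors E2f7 and E2f8 rose by 2.93 ± 0.66 and 2.83 ± 0.80, and the checkpoint kinase gene Chek1 by 2.32 ± 0.66. The activator E2f1 was low, at 2.96, 5.21 and 7.02 CPM in ndLN Ebi3 Tregs and 0, 1.75 and 1.47 CPM in ndLN DN Tregs. Its groups did not overlap, but its log2 fold change of 2.31 ± 1.13 did not pass (adjusted p = 0.197).

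In naive mice Rrm2 was at 316, 303 and 285 CPM in Ebi3 Tregs and 40.3, 30.9 and 14.6 CPM in DN Tregs (3.30 ± 0.47, adjusted p = 6.61e-05). Chaf1a, the large CAF-1 subunit that deposits histones behind the fork, was at 38.9, 37.8 and 39.3 CPM in naive Ebi3 Tregs, against 2.28, 4.62 and 2.59 CPM in naive DN Tregs (3.52 ± 0.56). E2f7 held 505 counts over the 3 Ebi3 libraries and 1 count over the 3 DN libraries, a ratio of 540 with a 95% counting interval from 96.4 to 21361. E2f8 rose by 4.62 ± 0.90, Mcm10 by 3.67 ± 0.86 and Pola1 by 2.81 ± 0.64. The fold changes of Mcm5 at 1.43 ± 0.28 and of Pcna at 0.90 ± 0.21 also passed. Without batch 3, 18 members rose in naive mice and 27 in the node, in fits of 20 libraries.

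In the tumour the same contrast passed for 0 of 44 genes with edgeR, with 0.713% of all genes passing in either direction. All 44 fold changes were positive, with a median of 0.66, and 18 had an unadjusted p below 0.05. DESeq2 called 4 members and limma on the deposited log2 values called 1. Rrm2 was at 188, 346 and 281 CPM in TIL Ebi3 Tregs and 76.7, 179 and 149 CPM in TIL DN Tregs, so every Ebi3 library lay above every DN library, though its log2 fold change of 1.00 ± 0.43 had an adjusted p of 0.441. Cdc6 was at 71.2, 62.2 and 69.9 CPM against 8.13, 50.5 and 48.2 CPM in TIL DN Tregs (1.06 ± 0.61). The summed CPM was 1.42 to 1.67 times that of DN Tregs within batches.

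Markers of other cells moved with these contrasts. The B cell marker list summed to 64.0 to 104 CPM in ndLN Ebi3 Tregs and 18 to 57.0 CPM in ndLN DN Tregs, and the B cell factor gene Pax5 was at 0 in all 30 libraries of the series. The myeloid list summed to 146 to 370 CPM in ndLN Ebi3 Tregs and 101 to 148 CPM in ndLN DN Tregs, and Csf1r was at 0 in 28 of the 30. The stromal and endothelial list ran the other way without overlap, at 85.4 to 102 CPM in ndLN Ebi3 Tregs and 165 to 272 CPM in ndLN DN Tregs, and at 92.8 to 128 CPM in naive Ebi3 Tregs and 158 to 279 CPM in naive DN Tregs. Most of that sum was Pecam1, while Dcn and Col3a1 were at 0 in 29 of the 30 libraries. The part of the remaining marker RNA in the results was not tested.

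IL10 Tregs lay between Ebi3 and DN Tregs outside the tumour. Against the same DN libraries, 22 of 44 members rose in ndLN IL10 Tregs and 0 fell (median log2 fold change 1.07, 8.81% of all genes higher), and 15 rose in naive IL10 Tregs (median 0.78, 9.98% of all genes). In the node the 22 were 8 helicase, 6 polymerase and clamp, 5 nucleotide, 1 CAF-1 and 2 E2F group genes, so the nucleotide supply was again complete. Rrm2 was at 227, 234 and 236 CPM in ndLN IL10 Tregs, each above the highest ndLN DN library, with a log2 fold change of 2.29 ± 0.45 (adjusted p = 0.00104). Tk1 was at 92.5, 59.5 and 71.3 CPM (1.92 ± 0.33) and Mcm5 at 162, 211 and 153 CPM (1.12 ± 0.28). Mcm10 rose by 2.79 ± 0.82, Gins1 by 2.47 ± 0.47, E2f7 by 2.27 ± 0.65, Cdc6 by 1.97 ± 0.63 and Pcna by 0.81 ± 0.21. Here the stromal and endothelial list summed to 44.2 to 46.7 CPM in ndLN IL10 Tregs and 165 to 272 CPM in ndLN DN Tregs, and the myeloid list to 180 to 224 CPM in IL10 and 101 to 148 CPM in DN Tregs. In naive mice the stromal list summed to 32.4 to 59.5 CPM in IL10 and 158 to 279 CPM in DN Tregs, and the myeloid list to 170 to 246 CPM in IL10 and 114 to 160 CPM in DN Tregs. None of these sums overlapped, and their part in the result was not tested.

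The naive IL10 Tregs were uneven. Rrm2 was at 184, 56.3 and 170 CPM in naive IL10 Tregs, against 40.3, 30.9 and 14.6 CPM in naive DN Tregs (2.29 ± 0.45), and library 2 was the lowest IL10 library for Pcna, Tk1 and Cdc6 as well. Cdc6 was at 35.8, 7.58 and 47.1 CPM against 10.5, 21.6 and 5.31 CPM in DN Tregs, which overlap (1.42 ± 0.63, adjusted p = 0.132). Chaf1a rose by 2.71 ± 0.55 and Pola1 by 2.23 ± 0.63. The within-batch ratio of summed CPM was 1.01 to 2.11 in naive mice and 1.55 to 2.18 in the node. Leaving out batch 3 left 3 naive calls and 9 in the node, and leaving out batch 2 gave 20 and 22.

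In the tumour IL10 and DN Tregs were not told apart on these genes: 0 members rose or fell with edgeR or DESeq2, 0 had an unadjusted p below 0.05, and the median log2 fold change was 0.04. Of all genes, 0.837% passed in either direction. Rrm2 was at 85.6, 204 and 149 CPM in TIL IL10 Tregs and 76.7, 179 and 149 CPM in TIL DN Tregs, with library 2 the highest and library 1 the lowest in both. The within-batch ratio of the sum was 0.904 to 1.03.

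Set directly against Ebi3 Tregs, IL10 Tregs had lower values of all 44 members at each site, and a few passed. In the tumour 2 fell (1.07% of all genes lower), Rrm1 by 0.83 ± 0.22 and Mcm6 by 0.56 ± 0.15 on the log2 scale. Rrm1, the large subunit of ribonucleotide reductase, was at 171, 273 and 224 CPM in TIL IL10 Tregs and 306, 542 and 405 CPM in TIL Ebi3 Tregs. In the node 5 fell (1.94% of all genes), namely Ccne1 by 1.25 ± 0.31, Mcm7 by 0.95 ± 0.25, Mcm5 by 0.95 ± 0.27, Mcm4 by 0.61 ± 0.15 and the clamp loader gene Rfc2 by 0.54 ± 0.16. In naive mice 6 fell (2.18% of all genes): Ccne1 by 1.22 ± 0.31, Rfc4 by 1.01 ± 0.28, Mcm5 by 0.92 ± 0.28, Rrm1 by 0.82 ± 0.22, Mcm2 by 0.81 ± 0.23 and Mcm4 by 0.49 ± 0.15. Ccne1 was at 41.1, 27.0 and 38.5 CPM in ndLN IL10 Tregs and 77.5, 122 and 81.0 CPM in ndLN Ebi3 Tregs, without overlap. Without batch as a term 0 passed at any site, and without batch 2 the naive count was 0.

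**Figure D4:**
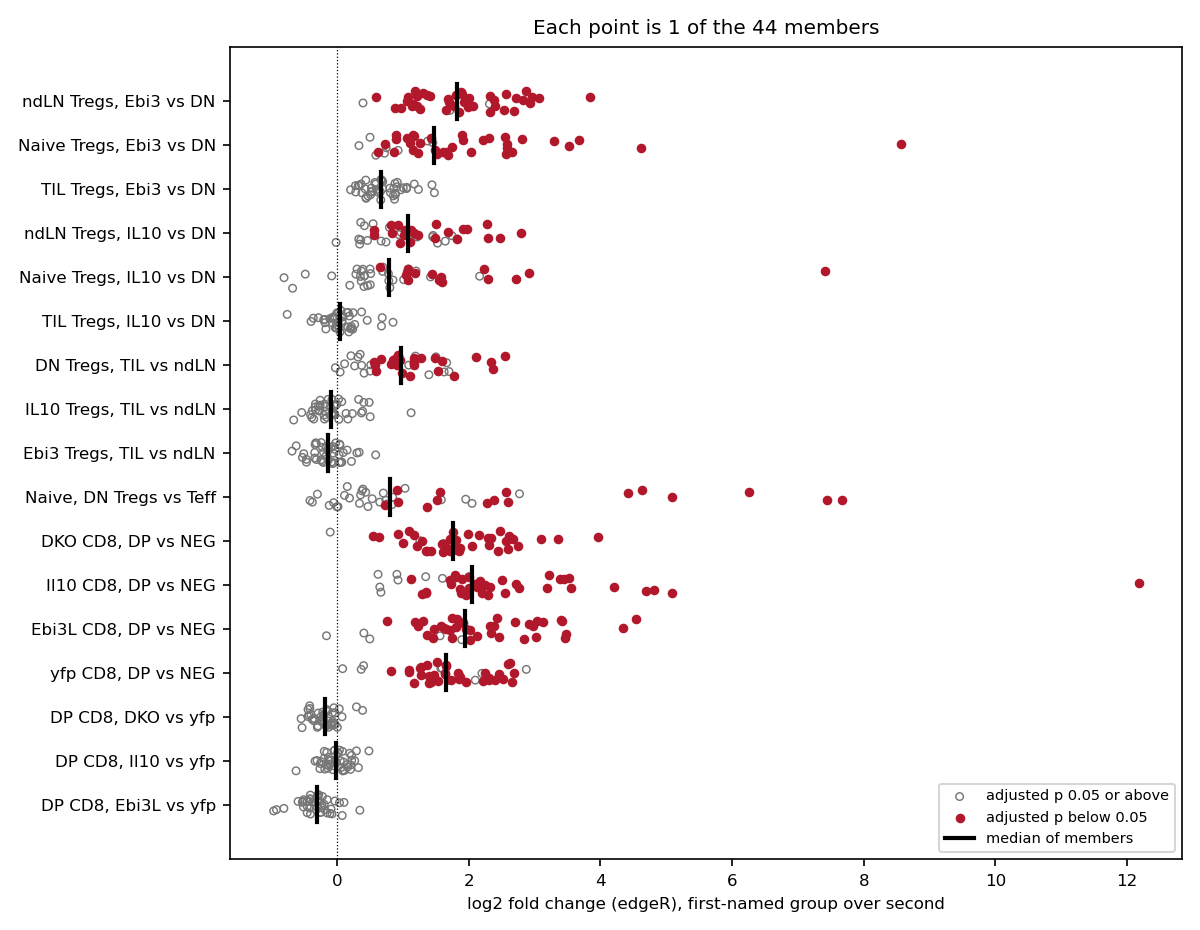
Log2 fold change of each of the 44 genes in the main comparisons, one point per gene with the median, filled where the gene passed the adjusted threshold of 0.05. The points farthest to the right are genes with 0 to 3 counts in the second group, whose fitted position depends on the prior count. The medians stand at 1.83 for ndLN Ebi3 against DN Tregs, at 0.04 for TIL IL10 against DN Tregs and between 1.65 and 2.05 for DP against NEG CD8 cells.

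In DN Tregs the tumour libraries held more replication RNA. Against ndLN DN Tregs, 25 of 44 members rose in TIL DN Tregs and 0 fell (median log2 fold change 0.97, 12.9% of all genes higher), with 8 helicase, 8 polymerase and clamp, 5 nucleotide, 2 CAF-1 and 2 E2F group genes. Gins1 was at 20.7, 16.7 and 26.1 CPM in TIL DN Tregs, against 1.85, 5.09 and 4.40 CPM in ndLN DN Tregs (2.54 ± 0.47, adjusted p = 0.000199). Lig1, the ligase that joins Okazaki fragments, was at 79.9, 114 and 96.0 CPM against 12.3, 33.0 and 18 CPM (2.33 ± 0.42), and Tk1 at 66.0, 95.3 and 73.0 CPM against 18, 17 and 24.3 CPM (2.11 ± 0.34, adjusted p = 3.61e-05). None of these 3 genes overlapped between the groups. Mcm10 rose by 2.37 ± 0.81, Gins2 by 1.77 ± 0.54, Rrm2 by 1.59 ± 0.44, Mcm5 by 0.92 ± 0.28, Ccne1 by 0.91 ± 0.31 and Pcna by 0.85 ± 0.21. Cdc6 was at 8.13, 50.5 and 48.2 CPM against 9.53, 24.9 and 5.80 CPM, which overlap (1.50 ± 0.62, adjusted p = 0.0875). Within batches the sum was 1.44 to 1.69 times that of ndLN DN Tregs, with 35 to 41 members higher. The count was 16 without batch as a term and 9 without batch 3. Myeloid markers summed to 169 to 272 CPM in TIL DN Tregs and 101 to 148 CPM in ndLN DN Tregs, and stromal and endothelial markers to 65.3 to 117 CPM in TIL DN Tregs and 165 to 272 CPM in ndLN DN Tregs. Neither sum overlapped, and their part in the result was not tested.

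In the cytokine-positive Tregs no member passed between these sites with edgeR. Of the 44 members, 0 rose or fell between TIL and ndLN IL10 Tregs with edgeR or DESeq2, while limma on the deposited log2 values called 1. There 1 had an unadjusted p below 0.05, the median was -0.10, and 9.32% of all genes passed in either direction. Between TIL and ndLN Ebi3 Tregs 0 rose or fell with edgeR or DESeq2 and limma again called 1. In that contrast 2 had an unadjusted p below 0.05, the median was -0.14, and 10.3% of all genes passed in either direction. Mcm5 was at 163, 291 and 238 CPM in TIL Ebi3 Tregs and 236, 517 and 341 CPM in ndLN Ebi3 Tregs, which overlap, though the TIL library was the lower in each batch (-0.47 ± 0.27, adjusted p = 0.351). Within batches the summed CPM of TIL Ebi3 Tregs was 0.774 to 0.822 times that of ndLN Ebi3 Tregs, with 6 to 8 of 44 members higher in TIL, and the ratio in IL10 Tregs was 0.680 to 1.03.

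The difference between these steps was tested as an interaction, in which both tests use the same DN libraries. The step from node to tumour was lower in IL10 than in DN Tregs for 6 members (2.5% of all genes), with log2 differences of -2.58 ± 0.64 for Gins1, -1.70 ± 0.46 for Tk1, -1.53 ± 0.40 for the origin recognition gene Orc6, -1.24 ± 0.32 for Dut, -1.18 ± 0.32 for Rrm1 and -0.98 ± 0.21 for Mcm6. It was lower in Ebi3 than in DN Tregs for 2 (0.968% of all genes), Tk1 at -2.08 ± 0.46 and Mcm4 at -0.89 ± 0.21. The median difference over members was -0.99 for IL10 and -1.12 for Ebi3 Tregs. Without batch as a term 1 and 0 members passed, and leaving out any 1 batch gave 0 to 4 and 0 to 2.

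Between the node of tumour-bearing mice and naive mice few members passed. With edgeR 1 of 44 rose in ndLN DN Tregs (0.0852% of all genes), E2f7, with 115 counts over 3 ndLN libraries and 1 count over 3 naive libraries (ratio 110, 95% counting interval 19.4 to 4402). It did not pass without batch 2 or without batch 3. In IL10 Tregs and in Ebi3 Tregs 0 passed with edgeR, DESeq2 or limma (0.0542% and 0.00775% of all genes), 1 member in each had an unadjusted p below 0.05, and the medians were 0.33 and 0.29.

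Naive DN Tregs held more of these transcripts than naive Teff cells: 16 of 44 rose and 0 fell (median 0.80, 8.79% of all genes higher), of which 5 were helicase, 2 polymerase and clamp, 5 nucleotide and 4 E2F group genes. Teff cells were at the floor for several. Cdc6 held 491 counts over the 3 DN libraries and 2 over the 3 Teff libraries (ratio 226, 95% counting interval 62.2 to 1871). The repair gene Brca1 held 258 against 3 (ratio 79.1, 26.8 to 386), and both genes were above 3 CPM in every DN library. E2f8 and Mcm10 rested mostly on library 1. E2f8 held 57, 2 and 0 counts in the DN libraries and 0 in every Teff library, and it did not pass without batch 1. Mcm10 held 75, 10 and 0 counts in the DN libraries and 2, 0 and 0 in the Teff libraries, and it did not pass without batch 1 or without batch 2. Tk1 was at 20.8, 21.1 and 16 CPM in naive DN Tregs and 0.273, 0.617 and 1.83 CPM in Teff cells (4.41 ± 0.45, adjusted p = 6.5e-08), and Rrm2 rose by 2.56 ± 0.50. The abundant genes Mcm5 and Pcna were close by comparison and did not pass. Mcm5 was at 83.8, 146 and 67.2 CPM in DN Tregs and 57.7, 80.0 and 45.1 CPM in Teff cells (0.70 ± 0.28, adjusted p = 0.108). Pcna was at 256, 193 and 173 CPM and 148, 179 and 134 CPM (0.47 ± 0.21). Mcm6, the member with the highest mean CPM, did rise. It was at 236, 385 and 251 CPM in DN Tregs and 114, 212 and 153 CPM in Teff cells, without overlap. Without batch 1 the count was 8.

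In the CD8 series DP cells held more replication RNA than NEG cells in all 4 host genotypes, each with its own libraries. In DKO hosts 41 of 44 members rose (median log2 fold change 1.76, 18% of all 14734 genes), in Il10 hosts 36 (median 2.05, 12.5%), in Ebi3L hosts 38 (median 1.94, 15.7%) and in yfp hosts 35 (median 1.65, 13.4%), and 0 fell in any. The same 30 genes rose in all 4 and 41 in at least 1. Brca1, Cdt1 and Chek1 passed in none, though Chek1 passed in DKO hosts (log2 fold change 1.92) when libraries were paired by genotype and library number. Both CAF-1 genes and all 5 nucleotide genes rose in each genotype, along with 11 to 13 of the 14 helicase genes, 12 to 15 of the 15 polymerase and clamp genes and 4 to 6 of the 8 genes of the E2F group. Within libraries of one genotype and one library number the summed CPM of DP cells was 2.46 to 3.97 times that of NEG cells in DKO hosts, 3.12 to 4.90 times in Il10, 3.64 to 3.80 times in Ebi3L and 2.49 to 5.43 times in yfp hosts.

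Rrm2 was at 794, 950, 616 and 801 CPM in DP cells of DKO hosts, against 129, 319, 76.3 and 79.3 CPM in their NEG cells (2.60 ± 0.62, adjusted p = 0.000971). In Il10 hosts it was at 945 and 1128 CPM in DP and 28.0 and 43.3 CPM in NEG cells (4.82 ± 0.96), and in Ebi3L hosts at 580, 502 and 529 CPM in DP and 62.3, 49.4 and 78.4 CPM in NEG cells (3.12 ± 0.73). In yfp hosts DP cells were at 1000, 697 and 596 CPM and NEG cells at 229, 27.9 and 196 CPM (2.31 ± 0.70, adjusted p = 0.0123). DP and NEG libraries did not overlap in any genotype, and the spread among NEG libraries was the wider in proportion.

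Dut, which keeps uracil out of DNA, was at 520, 506 and 1033 CPM in DP cells of yfp hosts, against 112, 41.1 and 199 CPM in NEG cells, with the smallest adjusted p of the members there (2.63 ± 0.31, adjusted p = 1.92e-08). The DP library at 1033 CPM is of batch 3, whose NEG library was also the highest. Mcm5 was at 549, 494 and 251 CPM in yfp DP cells and 203, 60.5 and 88.9 CPM in yfp NEG cells (1.84 ± 0.37), and Pcna at 367, 329 and 459 CPM and 155, 62.8 and 196 CPM (1.53 ± 0.26, adjusted p = 1.18e-05). Neither gene overlapped. In the other hosts Mcm5 rose by 1.84 ± 0.32 (DKO), 2.21 ± 0.46 (Il10) and 2.34 ± 0.37 (Ebi3L), and Pcna by 1.43 ± 0.22, 1.79 ± 0.32 and 1.74 ± 0.26 in that order.

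Low genes were among those with the largest changes, along with nucleotide genes such as Rrm2 and Dut above. In Il10 hosts E2f7 held 835 counts over the 2 DP libraries and 0 over the 2 NEG libraries, at least 249-fold higher when set against 3 counts over the group. E2f7 rose by 3.97 ± 1.22 in DKO and 4.54 ± 1.42 in Ebi3L hosts, and E2f8 by 3.36 ± 0.83 in DKO, 5.09 ± 1.28 in Il10, 4.34 ± 1.02 in Ebi3L and 2.52 ± 0.92 in yfp hosts. Cdc45, the helicase partner, rose by 2.67 ± 0.57 in DKO, 3.46 ± 0.68 in Ebi3L and 2.59 ± 0.65 in yfp hosts, and Ccne2, which encodes cyclin E2, by 3.48 ± 0.68 in Ebi3L hosts. Cdc6 passed in DKO (2.61 ± 0.82) and Ebi3L hosts (2.43 ± 0.94), not in Il10 (1.60 ± 1.14) or yfp hosts (2.20 ± 0.93, adjusted p = 0.0751). In Il10 NEG cells it was at 121 and 16.1 CPM, so library 1 lay within the DP range of 101 and 172 CPM. E2f1 passed in DKO (1.59 ± 0.56) and Ebi3L hosts (1.74 ± 0.65), and also in yfp hosts when libraries were paired (log2 fold change 1.82).

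Without the libraries of batch 3 the DP against NEG count was 11 in Ebi3L hosts, which then rest on 1 library per population, and 30 in yfp hosts. It was 23 in Il10 hosts without library 2. Myeloid markers summed to 256 to 791 CPM in DP and 73.7 to 197 CPM in NEG cells of Ebi3L hosts, and to 156 to 415 CPM in DP and 89.3 to 186 CPM in NEG cells of yfp hosts. In DKO hosts the sum was 211 to 244 CPM in DP and 74.8 to 110 CPM in NEG cells, and in Il10 hosts 165 to 248 CPM in DP and 58.2 to 96.4 CPM in NEG cells. The groups overlapped only in yfp hosts. Cst3 made up most of that sum, while Csf1r was at 0 in 51 and C1qa in 50 of the 60 libraries. B cell markers ran the other way without overlap in all 4 genotypes, at 0.195 to 1.85 CPM in DP and 43.0 to 61.7 CPM in NEG cells of yfp hosts. Stromal and endothelial markers were also lower in DP cells, without overlap in DKO, Il10 and yfp hosts (11.6 to 22.6 CPM in DP and 25.5 to 128 CPM in NEG cells of yfp hosts). NK cell markers summed to 54.0 to 136 CPM in DP and 149 to 376 CPM in NEG cells of yfp hosts and were likewise lower in Il10 hosts, at 139 to 141 CPM in DP and 167 to 283 CPM in NEG cells, and overlapped in the other hosts. The part of these RNAs in the result was not tested.

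For no member was the difference of DP minus NEG shown to depend on the host. Of the 44, 0 passed for DKO, Il10 or Ebi3L hosts against yfp hosts with edgeR (0.00679%, 0% and 0.0136% of all genes), 1, 3 and 0 had an unadjusted p below 0.05, and DESeq2 called 0, 1 and 0. The medians of the difference were 0.06, 0.53 and 0.37, and for Rrm2 in Il10 hosts it was 2.51 ± 1.08. Without batch 3 again 0 passed for each, with medians of -0.07, 0.42 and 0.30.

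At single steps along the populations 0 to 6 members passed. The 5 populations of a genotype and library number share a labelled set, and a fit with that source as a block called more at several steps, which is given beside them. From NDLN to NEG, 4 rose in DKO hosts (3.24% of all genes), namely E2f7 by 4.92 ± 1.41, Tk1 by 2.01 ± 0.60, Lig1 by 1.93 ± 0.41 and Mcm4 by 0.74 ± 0.22. In Il10 hosts 3 rose (1.32%), the polymerase delta gene Pold1 by 2.05 ± 0.42, Mcm5 by 1.62 ± 0.45 and Mcm4 by 1.44 ± 0.31. In yfp hosts 2 rose (1.15%), Lig1 by 2.05 ± 0.47 and Pold1 by 1.23 ± 0.34. In Ebi3L hosts 0 passed with edgeR or DESeq2 (1.26% of all genes in either direction) and 1 had an unadjusted p below 0.05, with a lower value. Lig1 was at 105, 27.0 and 95.6 CPM in NEG and 15.3, 22.4 and 19.3 CPM in NDLN cells of yfp hosts. Library 2 stood out there, and without it 18 members rose in yfp hosts. Without library 1 or 3 the count was 1 or 0. With the replicate block 7 rose in DKO and 5 in Il10 hosts, while Tk1 in DKO (1.87) and Pold1 in yfp hosts (1.16) did not pass. Without batch 3 the count was 1 in DKO and 0 in yfp hosts.

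From NEG to INT, 1 rose in Il10 hosts (0.346% of all genes), Rfc2 by 1.02 ± 0.26. With edgeR and with DESeq2 0 passed in DKO (0.0475%) and Ebi3L hosts (1.11%), where 23 and 11 had an unadjusted p below 0.05 with higher values, and in yfp hosts (0.835%), where 0 did. From INT to SP, Dut rose in 3 genotypes, by 1.29 ± 0.36 in Il10, 1.27 ± 0.30 in Ebi3L and 1.38 ± 0.30 in yfp hosts. Rfc5 rose by 1.07 ± 0.31 and Rpa2, which coats single-stranded DNA, by 0.91 ± 0.27 in Il10 hosts (1.75% of all genes rose), Orc6 by 1.33 ± 0.33 and Mcm6 by 0.95 ± 0.26 in Ebi3L hosts (1.04%), and Rfc5 by 1.11 ± 0.26 and Rfc2 by 0.73 ± 0.21 in yfp hosts (1.15%). In DKO hosts 0 passed with edgeR (1.8%), 1 had an unadjusted p below 0.05 and DESeq2 called 1. With the replicate block 5 rose in Il10, 12 in Ebi3L and 10 in yfp hosts, and Pcna passed in all 3, by 0.81, 0.70 and 0.68. Leaving out any 1 library of the genotype left 0 or 1 call in Il10, Ebi3L and yfp hosts, and without batch 3 there were 0 in all 3.

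From SP to DP, 6 rose in DKO hosts (3.42% of all genes): Dut by 1.02 ± 0.26, Rfc5 by 0.82 ± 0.22, the flap nuclease gene Fen1 by 0.78 ± 0.25, Mcm4 by 0.72 ± 0.22, Pcna by 0.68 ± 0.22 and Rfc2 by 0.55 ± 0.18. That count was 13 with the replicate block, where Mcm5 also passed (1.00), and 2 without batch 3. It was 3 without DKO library 2, and 0 without library 3 or 4. In Il10 (0.421%), Ebi3L (2.76%) and yfp hosts (0.876%) 0 passed with edgeR or DESeq2, though with the replicate block Pcna passed in Ebi3L hosts (0.67), and 1, 11 and 6 had an unadjusted p below 0.05, all with higher values. Over all 4 steps and 4 genotypes the median fold change of the members was positive, from 0.10 to 0.95 on the log2 scale, though from SP to DP in Il10 hosts it was -0.13 without Il10 library 2. The steps shared libraries with their neighbours, and no test compared one step with another. The counts at single steps depended on the filter on low counts: with no filter 24 members rose from INT to SP in yfp hosts, 30 in Ebi3L and 18 in Il10 hosts, and 23 from SP to DP in DKO hosts. The share of all genes called with no filter, or with the replicate block, is not given here, so these counts show dependence on the fit only.

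Between host genotypes no member passed in any population. With edgeR 0 of 44 were called in each of 15 comparisons of DKO, Il10 or Ebi3L hosts with yfp hosts, where at most 0.00811% of all genes passed (0.00775% in INT cells). At an unadjusted p below 0.05 there were 0 to 12 members per comparison. DESeq2 called 3 in NDLN cells of Il10 hosts, 1 in INT cells of Ebi3L hosts and 0 in the others. In SP cells of DKO hosts all 44 fold changes were negative, with a median of -0.55, and 12 had an unadjusted p below 0.05. In INT cells of Ebi3L hosts the median was -0.53 with 12, and in NEG cells of Ebi3L hosts -0.74 with 8. In DP cells the medians were -0.19 (DKO), -0.02 (Il10) and -0.30 (Ebi3L), and Rrm2 differed by -0.10 ± 0.19, 0.26 ± 0.23 and -0.41 ± 0.20 in that order. Over the libraries of batch 1 alone (3 DKO, 1 Il10, 1 Ebi3L and 2 yfp per population) 0 passed in any comparison. The medians there were -0.47 in SP cells of DKO hosts, -0.42 in INT and -0.61 in NEG cells of Ebi3L hosts, and -0.26 (DKO), 0.16 (Il10) and -0.35 (Ebi3L) in DP cells.

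Other lists of the cell cycle moved in the same contrasts. Of 49 other replication genes 29 rose and 1 fell in ndLN Ebi3 against DN Tregs (6.96% of all genes rose, and 783 of 12907 fell). Those that rose included the nuclease gene Exo1 (3.54 ± 0.80) and the origin firing gene Ticrr (3.41 ± 0.98). In TIL against ndLN DN Tregs 14 rose and 2 fell (12.9% of all genes rose, and 1355 fell). In DP against NEG cells 30 rose and 3 fell in DKO, 29 and 3 in Il10, 24 and 1 in Ebi3L and 27 and 2 in yfp hosts. Of all 14734 genes, 18%, 12.5%, 15.7% and 13.4% rose in that order, and 2381, 1756, 2303 and 1910 fell. Samhd1, which encodes an enzyme that breaks down deoxynucleotides, ran against its list, and it was singled out after its values were seen. In Ebi3 against DN Tregs it fell by 0.53 ± 0.13 in the tumour, 0.77 ± 0.13 in the node and 0.66 ± 0.13 in naive mice on the log2 scale. In DP against NEG cells Samhd1 fell by 1.52 ± 0.25 in DKO, 1.41 ± 0.35 in Il10, 2.19 ± 0.29 in Ebi3L and 1.52 ± 0.29 in yfp hosts.

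Of 20 mitosis genes 14 rose in ndLN Ebi3 against DN Tregs (6.96% of all genes) and 20 in naive Ebi3 against DN Tregs (7.4%). The medians were 2.17 and 3.06. The proliferation marker Mki67 rose by 2.12 ± 0.64 and 3.27 ± 0.67 there. In TIL against ndLN DN Tregs, where 25 of 44 replication and S phase genes rose, 2 of the 20 mitosis genes did (median 1.29), a share of 10% against 12.9% of all genes, and Mki67 at 1.48 ± 0.63 did not pass (adjusted p = 0.0975). Their summed level was 1696 to 2528 CPM in TIL DN Tregs and 551 to 1189 CPM in ndLN DN Tregs, so those groups did not overlap. In DP against NEG cells 19 (DKO), 19 (Il10), 17 (Ebi3L) and 16 (yfp) of 20 rose. The shares of all genes that rose were 18%, 12.5%, 15.7% and 13.4% in that order.

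The list of G1 cyclins, CDKs, inhibitors and RB family genes held calls in both directions. In TIL against ndLN DN Tregs 5 of 18 rose (27.8%, against 12.9% of all genes) and 2 fell (11.1%, against 10.5% of all genes), led by the CDK inhibitor genes Cdkn1a (5.14 ± 0.82) and Cdkn2c (1.37 ± 0.22) and the kinase gene Cdk6 (1.54 ± 0.26). In DP against NEG cells of yfp hosts 5 of 19 rose (26.3%, against 13.4%) and 3 fell (15.8%, against 13%), so the lower calls were near the share of all genes in both contrasts. There the log2 fold change of Cdkn1a was 4.16 ± 0.83, of Cdk6 2.61 ± 0.88 and of the inhibitor gene Cdkn2d -2.07 ± 0.23. In ndLN Ebi3 against DN Tregs 4 of 18 rose (22.2%, against 6.96%) and 1 fell (5.56%, against 6.07%), with Cdkn2c at 1.15 ± 0.22 and Cdk2 at 0.83 ± 0.19.

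**Figure D5:**
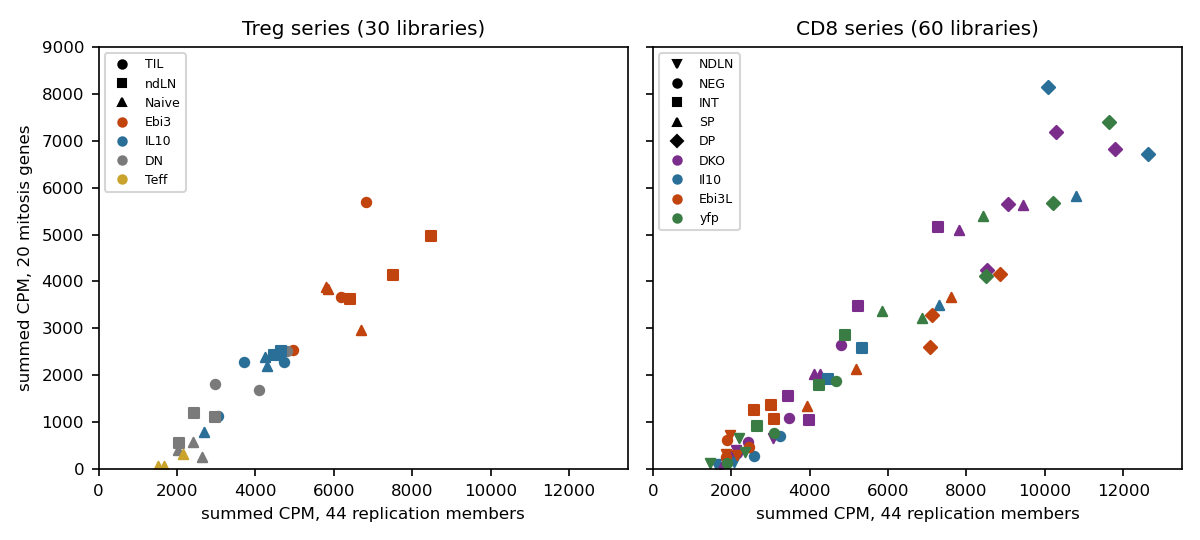
Summed CPM of the 44 replication and S phase genes (horizontal) against that of the 20 mitosis genes (vertical), both on linear axes, one point per library of the Treg and CD8 series, with shape for site or population and colour for sort or host. Libraries high in one sum are high in the other, with ndLN DN Tregs between 551 and 1189 CPM of mitosis genes and ndLN Ebi3 Tregs between 3621 and 4962 CPM.

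A pair of members, singled out after their values were seen, followed the rest least closely, Rpa1 in the Treg series and Cdt1 in the CD8 series. Cdt1, the licensing factor that pairs with Cdc6 and is degraded in S phase, was at 44, 68.2 and 50.4 CPM in ndLN Ebi3 Tregs and 37.6, 38.0 and 42.9 CPM in ndLN DN Tregs (0.39 ± 0.27, adjusted p = 0.394). In DP cells of yfp hosts it was at 94.4, 87.1 and 54.0 CPM, against 82.7, 92.6 and 49.8 CPM in NEG cells (0.08 ± 0.24), and it passed in 0 of the 4 genotypes. Rpa1, the large subunit of the single-strand binding protein, was at 227, 304 and 263 CPM in ndLN Ebi3 Tregs and 177, 180 and 146 CPM in ndLN DN Tregs (0.59 ± 0.14, adjusted p = 0.0067), while naive DN Tregs held 164, 226 and 187 CPM and naive Teff cells 237, 305 and 241 CPM. In DP against NEG cells Rpa1 rose in DKO, Il10 and yfp hosts and did not pass in Ebi3L hosts. Its correlation with the mean of the other members was 0.16 over the Treg series, the lowest of the 44, and 0.59 over the CD8 series. The lowest in the CD8 series was that of Cdt1 at 0.31.

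The members with an E2F match in the promoter windows shown above did not stand out by size of change. Their median log2 fold change was 1.73 over 12 genes, against 1.92 over the 25 genes without a match, in ndLN Ebi3 against DN Tregs, and 0.75 against 1.16 in TIL against ndLN DN Tregs. In DP against NEG cells the medians with and without a match were 1.71 and 1.76 in DKO, 1.92 and 2.17 in Il10, 1.92 and 2.01 in Ebi3L and 1.44 and 1.72 in yfp hosts. These medians are a description and were not tested against each other.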

How the data were processed

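RNA of sorted mouse T cells was measured in 90 libraries (30 groups, 56 comparisons). Per the labels' protocols, total RNA was amplified with a SMART-Seq kit and libraries were made with Nextera XT. The authors deposited raw read counts per gene, and per the submitters' processing notes STAR, Subread featureCounts, limma and the mm10 build were used. No label or file header states the strand setting, the annotation or tool versions. The authors also deposited log2 values, which held 43 of the members in the Treg series (9885 genes) and 44 in the CD8 series (10150 genes), and which were used only in an alternative fit.

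The counts were tested with edgeR 4.0.16 in R 4.3.3 (TMM, filterByExpr, robust quasi-likelihood fit, group plus batch, Benjamini-Hochberg threshold 0.05). The 30 Treg libraries entered one fit of 12907 genes and the 60 CD8 libraries one of 14734 genes, and host genotypes were compared within each population over 12 libraries. A standard error is the absolute log2 fold change over the square root of F. CPM used library totals, with a pseudocount of 0.5 on the log2 scale. DESeq2 1.42.0 and limma 3.58.1 were alternatives, with other scalings, no filter, a threshold of 0.01, and libraries or batches left out. Python 3.11.15 drew the figures and read the promoters. Intervals and floors of 3 counts cover counting error only, and no replicate pair of the 95 compared differed by less than sampling noise. The labels do not tie libraries to separate mice, and the spread that the p-values rest on may therefore be technical in part.

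The members and the lists were chosen with earlier results of these data known. Genes are named by a rule: 8 anchor members in every comparison, the 6 called members with the largest change, called members that ran against the majority, all called members where at most 5 were called, and up to 3 called genes of each other list. In the Treg series the replicate number is the labelled batch and is a term of the fit. Libraries of one batch deviated together (median correlation 0.14 over 135 pairs, against -0.12 over 270 other pairs). In the CD8 series the 5 populations of a genotype and number carry the same labelled set and batch, so the number pairs them (median correlation 0.19 over 120 pairs, 90 of them above 0.1, against -0.08 over 260 other pairs). The fit was made without that block, and the blocked value is given where it changes a call.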

Additional observations from a re-analysis of the deposited data

Results flagged for a closer look

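In 3 groups of 4 DKO libraries 1 library lay far from the others for a gene named here. Ccne1 was at 67.95 CPM in NDLN library 2, against 36.1 to 41.1 CPM in the other libraries. Pola1 was at 148.9 CPM in SP library 1, against 75.2 to 84.7 CPM in the others. Mcm5 was at 549.4 CPM in DP library 2, against 436 to 448 CPM in the others. In all 45 sets of 4 values were examined in this way, namely the sum and the 8 anchor members in each of the 5 DKO groups. Chance alone marks about 1 in 20 of separate sets. The sets of a group share the same 4 libraries and are not separate. The SP library bears on the host comparison of SP cells, where 0 members passed for DKO against yfp hosts and 1 passed without DKO library 1.

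The step from node to tumour differed between the sorted Tregs by the interaction test for a few members. The step was lower in IL10 than in DN Tregs for 6 members (2.5% of all genes). It was lower in Ebi3 than in DN Tregs for 2 members (0.968% of all genes). Both tests use the same DN libraries. Fewer members passed without batch as a term, and leaving out a batch gave 0 to 4 and 0 to 2.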

How the results depend on the processing

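No direction was reversed in the alternatives run for any named gene that passed in the main fit or in the alternative. Sign changes of genes that passed in neither were not counted. Some medians over members changed sign in the alternatives. In NEG cells of DKO against yfp hosts the median went to 0.19 without yfp library 1. From SP to DP in Il10 hosts it went to -0.13 without Il10 library 2. For the DP minus NEG difference of DKO against yfp hosts it was 0.06 in the main fit. That median turned negative where a batch was left out. In DP cells of Il10 against yfp hosts the main median of -0.02 turned positive over the libraries of batch 1 alone. Of 5650 values of named genes 5237 kept their side of the threshold, 289 lost it and 124 gained it, and 516 of 657 counts stayed within 1.5 times. DP against NEG counts stayed within that range except those given here. The cause of each change was not tested, other than fewer libraries where libraries were left out. The counts of the alternatives below are given without the share of all genes called in the same fit.

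With DESeq2 the counts were 4 for TIL Ebi3 against DN, 5, 8 and 11 for IL10 against Ebi3 in TIL, ndLN and naive mice, and 12 (IL10) and 11 (Ebi3) for the interactions. In CD8 cells DESeq2 gave 11 (yfp), 12 (DKO) and 7 (Il10) for NEG against NDLN, 6 for INT against NEG in Il10, 8 (yfp), 1 (DKO) and 13 (Ebi3L) for SP against INT, 10 for DP against SP in DKO, 1 for the Il10 interaction, 3 in NDLN Il10 and 1 in INT Ebi3L hosts. Size factors by RLE gave 1 for NEG against NDLN in yfp and 7 for SP against INT in Ebi3L. Library totals without TMM gave 1 and 1 for TIL against ndLN in IL10 and Ebi3 Tregs, 4 and 10 for IL10 against Ebi3 in TIL and naive mice, 1 (yfp) and 2 (DKO) for NEG against NDLN, and 2 for DP against SP in DKO. That scaling moved the median of all genes in TIL against ndLN to -0.10 (DN), -0.18 (IL10) and -0.20 (Ebi3), from 0.01, -0.02 and -0.04 with TMM, and the member medians to 0.84, -0.27 and -0.30. Fits of limma on the deposited log2 values gave 1 and 1 for TIL against ndLN in IL10 and Ebi3 Tregs, 1 for TIL Ebi3 against DN, 4 and 16 for IL10 against Ebi3 in TIL and naive mice, 4 for the Ebi3 interaction, and 7 for SP against INT in yfp and in Ebi3L.

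With no filter the count was 1 for TIL IL10 against Ebi3. For NEG against NDLN it was 28 (yfp), 26 (DKO), 20 (Il10) and 1 (Ebi3L), for INT against NEG 3, 19, 20 and 11, for SP against INT 24, 3, 18 and 30, and for DP against SP 7, 23, 1 and 14, in the same order of hosts. It was 2 for the Il10 interaction, and between hosts 3 (NDLN Il10), 1 (NDLN Ebi3L), 2 (NEG Il10), 3 (NEG Ebi3L), 7 (INT Ebi3L), 5 (SP DKO) and 1 (SP Ebi3L).

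Without the replicate block of the Treg series the counts were 16 for TIL against ndLN in DN, 0, 0 and 0 for IL10 against Ebi3, and 1 (IL10) and 0 (Ebi3) for the interactions. A replicate block in the CD8 series, pairing libraries by genotype and number, gave 10 (yfp), 5 (Il10) and 12 (Ebi3L) for SP against INT, 7 (DKO) and 5 (Il10) for NEG against NDLN, and 13 (DKO) and 1 (Ebi3L) for DP against SP, and moved no other count of members by over 1.5 times. Without batch 3, chosen after seeing the data, the counts were 0 (yfp) and 1 (DKO) for NEG against NDLN, 0 for INT against NEG in Il10, 0 for SP against INT in yfp, Il10 and Ebi3L, 2 for DP against SP in DKO and 11 for DP against NEG in Ebi3L.

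At a threshold of 0.01 the counts were 13 for TIL against ndLN in DN, 0 at each site for IL10 against Ebi3, 8 for naive IL10 against DN, 8 for naive DN against Teff, 1 (IL10) and 0 (Ebi3) for the interactions, 0 (yfp) and 1 (DKO) for NEG against NDLN, 0 for INT against NEG in Il10, 1 (yfp), 0 (Il10) and 0 (Ebi3L) for SP against INT, and 1 for DP against SP in DKO.

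Leaving out each replicate in turn gave 9 to 19 for TIL against ndLN in DN and 0 to 1 in IL10 Tregs, 27 to 35, 18 to 32 and 0 to 1 for Ebi3 against DN in ndLN, naive mice and TIL, 9 to 22 and 3 to 20 for IL10 against DN in ndLN and naive mice, 0 to 1, 0 to 5 and 0 to 7 for IL10 against Ebi3 in TIL, ndLN and naive mice, 0 to 2 for DN in ndLN against naive mice, 8 to 15 for naive DN against Teff, and 0 to 4 (IL10) and 0 to 2 (Ebi3) for the interactions. In CD8 cells it gave 24 to 31 (yfp), 33 to 41 (DKO), 23 to 30 (Il10) and 33 to 35 (Ebi3L) for DP against NEG, 0 to 18 (yfp), 1 to 3 (DKO) and 0 to 6 (Il10) for NEG against NDLN, 0 to 5 for INT against NEG in Il10, 0 to 1 (yfp), 0 to 1 (Il10) and 0 to 0 (Ebi3L) for SP against INT, 0 to 5 for DP against SP in DKO, 0 to 3 for the Il10 interaction and for NEG Il10 against yfp, and 0 to 1 for SP DKO against yfp. Where Il10 hosts are left with 1 library, that library is assumed to vary like the other groups. Depth sets the floor of 3 counts against which genes at 0 are given as bounds.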
